A study of Rattus rattus with 24 samples.

Results

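Axon guidance genes of the semaphorin, ephrin, netrin and slit families were examined across rat oligodendrocyte precursor cell (OPC) cultures. A gene was a member when its symbol named a semaphorin of classes 3 to 7, a plexin, neuropilin 1 or 2, an ephrin, an Eph receptor, a netrin, an Unc5 receptor, slit 1, 2 or 3, or a Robo receptor. The array measured 57 such genes of 14217 genes with a probe set of their own: 17 semaphorins, 10 semaphorin receptors, 5 ephrins, 12 Eph receptors, 7 netrins and Unc5 receptors, and 6 slits and Robo receptors. Each gene was read from its probe set with the highest mean, and all values are log2 expression values. The symbol pattern also took in Unc50, which is not a netrin receptor, and Unc5cl, which is named for its likeness to Unc5C.

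The cultures came from cerebral cortices of Sprague Dawley rat pups aged P4 to P7, although the deposited labels name the organism as Rattus rattus. Cells were selected with A2B5 microbeads and expanded with PDGF. They were then given 45 nM T3 (triiodothyronine, the active thyroid hormone), 1 µM quetiapine (an antipsychotic drug) or a combination of T3 and quetiapine. The control received DMSO vehicle alone. According to the paper, a commercial supplement in the medium contained a little T3. The paper states that this may have masked some effects of T3 or the combination. RNA was taken at 48 and 96 hours, labelled day 2 and day 4, from 3 biological replicates, each of which supplied every condition, so that the 8 groups held 3 arrays each and 24 in all. Because every treatment at a given time was set against the same control arrays, those comparisons are not independent of one another.

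Guidance genes encode secreted or membrane-bound cues and the receptors that read them. Semaphorins signal through plexins, with neuropilins as partners for most class 3 members, ephrins signal through Eph receptors, netrins through Dcc and Unc5 receptors, and slits through Robo receptors. In the oligodendrocyte lineage these systems are known for steering precursor migration and process outgrowth, and semaphorin 4D is also known for its expression in oligodendrocytes.

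Array medians lay between 6.43 and 6.51. The mean level of 7 myelin markers was 9.43 to 9.92 in the control arrays at 96 hours and 11.7 to 13.2 in the combination. That of 5 precursor markers at 96 hours was 10.5 to 11.3 in control, 10.3 to 10.9 with T3, 10.5 to 11.2 with quetiapine and 10.4 to 10.9 with the combination, and in each replicate it was lower under T3 and under the combination than in control. Markers of vascular cells and fibroblasts had mean levels of 4.63 to 4.83 at 96 hours and those of microglia 5.01 to 5.65. Those of neurons were 7.28 to 7.72 in control and 7.23 to 7.70 with T3. They were 6.96 to 7.30 with quetiapine and 7.04 to 7.35 with the combination, in both lower than control in each replicate. Markers of Schwann cells were 5.49 to 5.69 in control, 5.86 to 5.97 with T3, 5.50 to 6.57 with quetiapine and 5.63 to 6.84 with the combination. The mean level of 7 astrocyte markers at 96 hours was 11.4 to 11.8 in control, 11.0 to 11.7 with T3, 10.4 to 11.3 with quetiapine and 10.3 to 10.9 with the combination, so the cultures labelled as OPCs also carried astrocyte transcripts. With the combination at 96 hours 5 of these 7 markers were lower (Aldh1l1 by -2.39, Gja1 by -1.59) and Slc1a2 was higher by 0.98. The difference between the 3′ and 5′ beta-actin probe sets, a measure of RNA integrity, was 0.643 to 0.665 in control at 96 hours, 0.674 to 0.766 with T3, 0.601 to 0.723 with quetiapine and 0.704 to 0.768 with the combination. At 48 hours it was 0.577 to 0.623 in control and 0.581 to 0.585 with the combination. The part of astrocyte, neuron or other cell content and of RNA integrity in the changes below was not tested. In bulk cultures, fewer cells of a type and less RNA per cell cannot be told apart.

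With each treatment more guidance genes passed the test at 96 hours than at the earlier time. With T3 and the combination most of those at 96 hours were lower. These counts do not test the timing. The direct test of a difference between the times, given below, passed for 3 guidance genes with the combination, 1 with quetiapine and 0 with T3. With the combination at 96 hours 6 of the 57 genes were higher and 18 lower at an adjusted p under 0.05, where 35.1% of all genes passed, 15.2% as higher and 20.0% as lower. With T3 at 96 hours 3 were higher and 9 lower, against 14.7% of all genes (6.58% higher and 8.08% lower). Quetiapine at 96 hours gave 3 higher and 2 lower, against 7.25% of all genes (4.21% higher and 3.04% lower). The guidance genes called with the combination were thus 42.1% of the 57, and the lower ones 31.6%. The median change of the 57 genes with the combination at 96 hours was -0.13, and that of all genes was -0.01.

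At 48 hours fewer genes passed. The combination gave 2 higher and 8 lower (7.34% of all genes, 3.12% higher and 4.22% lower), T3 gave 1 higher (1.42%, of which 1.06% higher), and quetiapine gave none (0.183%), with 6 genes at an unadjusted p under 0.05 in limma. The cultures differed by replicate, and with the replicate as a block more genes passed. At 48 hours T3 then gave 8 higher and 9 lower, quetiapine 3 higher and 2 lower, and the combination 9 higher and 14 lower. At 96 hours T3 gave 7 higher and 15 lower, quetiapine 5 higher and 14 lower, and the combination 9 higher and 21 lower, so that quetiapine at 96 hours, with 3 higher and 2 lower without the block, had mostly lower genes with it. With the block 12.9%, 4.62% and 27.0% of all genes passed at 48 hours, and 30.1%, 21.5% and 47.6% at 96 hours. At 96 hours 8.96% of all genes were higher and 12.5% lower with quetiapine. The shares were 11.9% and 18.2% with T3, and 19.9% and 27.6% with the combination. All genes thus also had more lower than higher calls with the block. Without the block the P values rest on the spread of the replicates within groups. With the block they rest on the spread left after differences shared by a replicate number are removed.

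**Figure D1:**
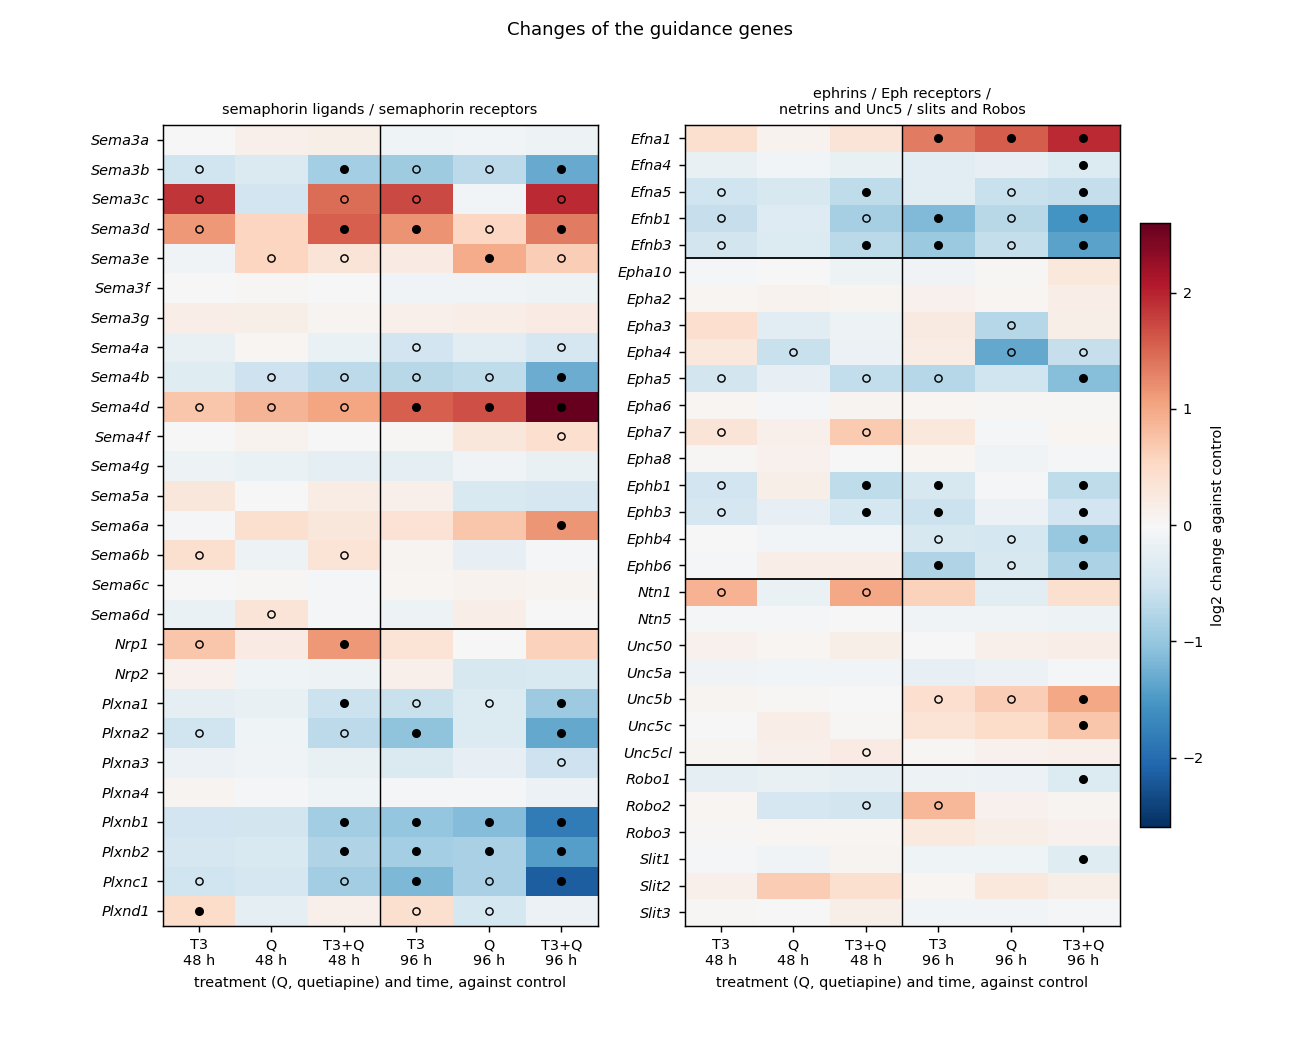
Log2 change against control of each of the 57 guidance genes (rows, grouped by role) with T3, quetiapine (Q) and the combination (T3+Q) at 48 and 96 hours (columns). Filled circles mark an adjusted p under 0.05, and open circles those that passed only with the replicate as a block. The most circles lie in the combination at 96 hours, where 24 are filled.

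Counts without single arrays, from fits without the block, differed most at 48 hours. No share of all genes is given beside them, so they do not show whether guidance genes differ from others. For the combination at 48 hours, 5 genes passed without control replicate 2, 6 without control replicate 3, and 4, 2 and 1 without combination replicates 1, 2 and 3. For T3 at 96 hours 7 and 6 passed without control replicates 2 and 3, and 6 without T3 replicate 2. For quetiapine at 96 hours 2 passed without control replicate 3. The count for the combination at 96 hours lay between 18 and 24 whichever array was left out.

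Sema4d, a membrane-bound semaphorin and a ligand of plexin B1, had the largest rise of the guidance genes with the combination at 96 hours. Its levels at 96 hours were 7.78, 7.55 and 7.56 in the control replicates and 9.55, 8.96 and 9.01 with T3. They were 9.97, 8.97 and 8.95 with quetiapine and 10.34, 10.18 and 10.11 with the combination. Every treated array lay above every control array, and the combination arrays lay above all arrays of the single compounds. Sema4d rose by 1.55 ± 0.245 (SE) with T3 (adjusted p = 0.00264), by 1.67 ± 0.245 with quetiapine (adjusted p = 0.00286) and by 2.58 ± 0.245 with the combination (adjusted p = 3.08e-05), a 5.99-fold change. At 48 hours its changes of 0.72, 0.88 and 1.04 did not pass the test, replicate 3 being the highest array in each treated group, and with the block they passed (adjusted p = 0.0344, 0.0313 and 0.00302).

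Secreted class 3 semaphorins differed in which compound they followed. Sema3d stood at 8.67, 8.22 and 7.53 in control at 96 hours, at 9.57, 9.33 and 9.04 with T3, at 8.72, 8.72 and 8.60 with quetiapine, and at 9.64, 9.38 and 9.42 with the combination. The T3 and combination arrays lay above the control arrays, and the lowest quetiapine array lay below the highest control array. Sema3d rose by 1.18 ± 0.233 with T3 at 96 hours (adjusted p = 0.0089), by 1.34 ± 0.233 with the combination (adjusted p = 0.00141), and by 1.55 ± 0.325 with the combination already at 48 hours (adjusted p = 0.0216). Quetiapine alone gave 0.54 at 96 hours, which passed only with the block (adjusted p = 0.0434). The call at 48 hours was lost without any of the combination replicates (adjusted p = 0.0518 to 0.0691).

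Sema3c varied widely between replicates. At 48 hours its levels were 6.50, 7.08 and 8.14 in control, 8.42, 9.06 and 9.82 with T3, 6.35, 6.59 and 7.28 with quetiapine, and 8.21, 8.84 and 9.01 with the combination. The T3 and combination arrays all lay above the control arrays. The changes of 1.86 ± 0.444 with T3 and 1.44 ± 0.444 with the combination missed the threshold (adjusted p = 0.0901 and 0.0876) and passed with the block (adjusted p = 8.66e-05 and 0.000176). At 96 hours the changes of 1.72 with T3 and 1.93 with the combination also passed only with the block (adjusted p = 0.00178 and 0.000347), and quetiapine alone gave -0.08. Within each replicate, quetiapine at 48 hours was lower than T3, with a mean difference of -2.36 ± 0.444 (adjusted p = 0.0257). That call was lost without quetiapine replicate 1 or 2 or T3 replicate 2 or 3 (adjusted p = 0.0848 to 0.112).

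Sema3e, a ligand of plexin D1, was past the test with quetiapine at 96 hours. Its levels were 10.28, 10.87 and 10.52 in control, 10.48, 11.02 and 10.78 with T3, 11.08, 11.65 and 11.84 with quetiapine, and 10.78, 11.43 and 11.36 with the combination. All 3 quetiapine arrays lay above all 3 control arrays. The rise with quetiapine was 0.97 ± 0.238 (adjusted p = 0.0376), and it was lost when control replicate 1 or 3, or quetiapine replicate 2 or 3, was left out (adjusted p = 0.0967 to 0.129). The combination gave 0.63 at 96 hours, past the test with the block (adjusted p = 0.000649), and quetiapine gave 0.56 at 48 hours, again only with the block (adjusted p = 0.0134). T3 gave -0.08 and 0.21 at 48 and 96 hours. In the RefSeq gene order of the assembly Rrattus_CSIRO_v1 Sema3d and Sema3a were next to each other, with 1 protein-coding gene between Sema3a and Sema3e and 10 between Sema3e and Sema3c. That assembly is of Rattus rattus, whereas Sprague Dawley rats are Rattus norvegicus, so the order in the species cultured was not read. Sema3a did not pass the test in any comparison with control, with or without the block.

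Other semaphorins fell or rose with the combination. Sema3b, a class 3 ligand, stood at 5.20, 5.81 and 6.30 in control at 96 hours and at 3.79, 4.79 and 4.81 with the combination, a fall of 1.30 ± 0.350 (adjusted p = 0.0159). It was among the 5 guidance genes with a mean in the lowest 25% of all probe sets, and the call was lost without control replicate 3 or combination replicate 1 (adjusted p = 0.068 and 0.0525). Its fall of 0.88 with the combination at 48 hours had an adjusted p of 0.049, and was lost without any 1 of the 6 arrays (adjusted p = 0.0514 to 0.147). Sema4b, a membrane-bound semaphorin, stood at 8.18, 8.81 and 9.20 in control at 96 hours and at 7.47, 7.49 and 7.39 with the combination, a fall of 1.28 ± 0.289 (adjusted p = 0.00643). The combination arrays differed by 0.055 (SD) and the control arrays by 0.516. Sema6a, a transmembrane semaphorin, rose by 1.14 ± 0.337 (adjusted p = 0.025), from 10.06, 10.12 and 10.31 to 11.90, 11.25 and 10.77. That rise was lost without control replicate 1 or 2 or combination replicate 1 or 2 (adjusted p = 0.0606 to 0.0861).

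**Figure D2:**
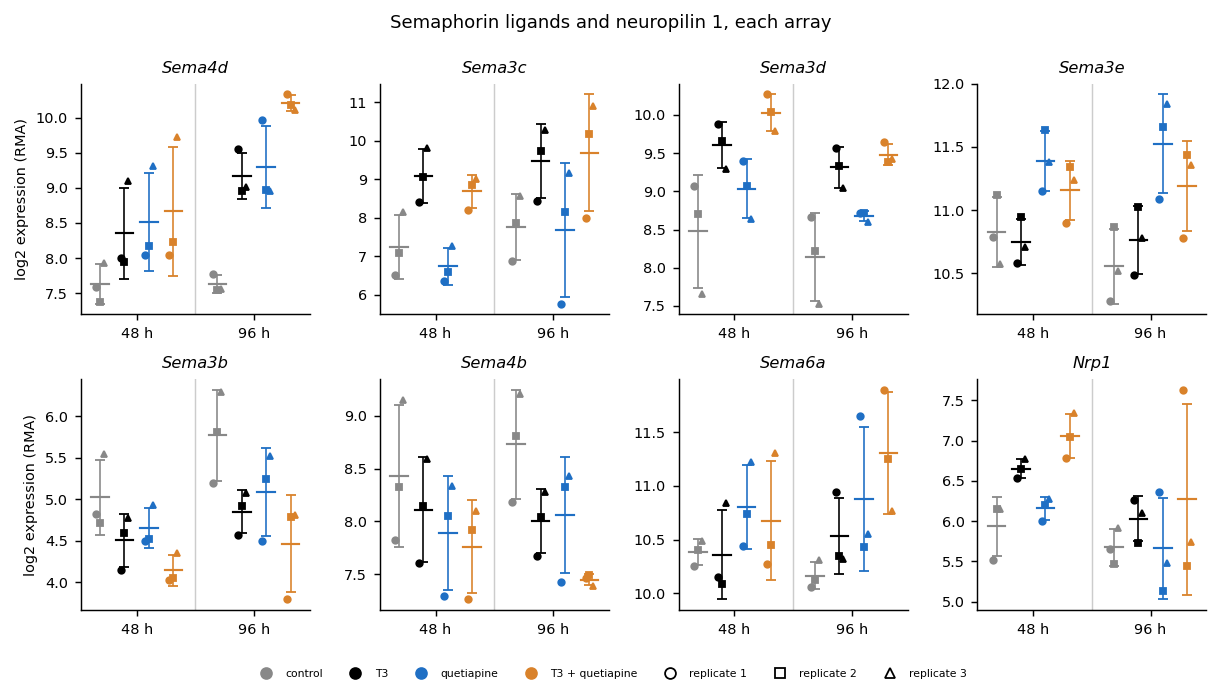
Log2 expression of 7 semaphorins and neuropilin 1 in each of the 24 arrays, by treatment and time. Symbols are replicates, horizontal lines group means and bars 1 SD (n = 3). Sema4d reached 10.11 to 10.34 in the combination at 96 hours against 7.55 to 7.78 in control, and Sema3c kept the same order of replicates in every group.

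Of the 10 receptors 5 fell with the combination at 96 hours and none rose, 4 fell with T3 and 2 with quetiapine, where 20.0%, 8.08% and 3.04% of all genes were lower. With the block 6, 5 and 5 were lower, against 27.6%, 18.2% and 12.5% of all genes. With T3 1 receptor, Plxnd1, was then higher, as were 11.9% of all genes. The median change of the 10 receptors with the combination at 96 hours was -0.74, against -0.01 for all genes. The 5 that fell were all plexins, the transmembrane receptors that bind semaphorins directly.

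Plxnc1 (plexin C1) fell furthest. At 96 hours its levels were 8.19, 8.55 and 9.08 in control, 7.16, 7.29 and 7.87 with T3, 7.60, 7.91 and 7.79 with quetiapine, and 6.85, 6.04 and 6.48 with the combination. All treated arrays lay below all control arrays, and the combination arrays lay below all others. The fall was 2.15 ± 0.259 with the combination (adjusted p = 0.000142) and 1.17 ± 0.259 with T3 (adjusted p = 0.015), while quetiapine alone gave -0.84, past the test only with the block (adjusted p = 0.0283). The call with T3 was lost without control replicate 3 or T3 replicate 2 (adjusted p = 0.0572 and 0.0654).

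Plxnb1, the plexin that binds Sema4d, stood at 9.52, 9.97 and 10.15 in control at 96 hours and at 8.71, 8.91 and 8.99 with T3. It stood at 8.25, 9.21 and 8.80 with quetiapine and at 7.94, 8.20 and 8.07 with the combination. No treated array reached the lowest control array, and the combination arrays lay below all of the others. Plxnb1 fell in all 3 treated groups. Its change was -1.01 ± 0.219 for T3 (adjusted p = 0.0137), -1.13 ± 0.219 for quetiapine (adjusted p = 0.0127) and -1.81 ± 0.219 for the combination (adjusted p = 0.000148). It was lower by 0.90 ± 0.198 with the combination at 48 hours (adjusted p = 0.0264). The calls with T3 and quetiapine at 96 hours were lost without control replicate 3 (adjusted p = 0.0572 and 0.0587), that with quetiapine also without control replicate 2 (adjusted p = 0.0509), and the call at 48 hours without control replicate 2 or combination replicate 2 or 3 (adjusted p = 0.0504 to 0.105).

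Plxnb2, the related plexin B2, stood at 10.11, 10.34 and 10.75 in control at 96 hours, at 9.31, 9.50 and 9.72 with T3, at 9.34, 9.68 and 9.67 with quetiapine, and at 8.90, 8.88 and 9.14 with the combination. All treated arrays lay below the control arrays and the combination arrays below all others, while the T3 and quetiapine arrays overlapped. Plxnb2 fell by 0.89 ± 0.169 with T3 (adjusted p = 0.00728), by 0.83 ± 0.169 with quetiapine (adjusted p = 0.0155), and by 1.43 ± 0.169 with the combination (adjusted p = 0.000128). At 48 hours the combination lowered it by 0.77 ± 0.170 (adjusted p = 0.0264), a call lost without any of the combination replicates (adjusted p = 0.0604 to 0.0879). The quetiapine call at 96 hours needed control replicate 3 and quetiapine replicate 1 (adjusted p = 0.052 and 0.0627 when either was left out).

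Of the 4 class A plexins, co-receptors with neuropilins for class 3 semaphorins, Plxna2 passed at 96 hours with T3 and the combination and Plxna1 with the combination. Plxna1 also passed with T3 (-0.59, adjusted p = 0.00341) and quetiapine (-0.36, adjusted p = 0.0452) when the replicate was a block, as did Plxna3 with the combination (-0.54, adjusted p = 0.0426). Plxna4 passed in neither fit. Plxna2 stood at 7.65, 7.87 and 8.46 in control at 96 hours, at 6.76, 6.79 and 7.30 with T3, at 7.17, 7.41 and 8.32 with quetiapine, and at 6.55, 6.47 and 7.00 with the combination. Only the quetiapine arrays overlapped the control arrays. The fall was 1.04 ± 0.299 with T3 (adjusted p = 0.0461) and 1.32 ± 0.299 with the combination (adjusted p = 0.00664). The T3 call was lost without any array of either group other than control replicate 1 (adjusted p = 0.0543 to 0.163). Plxna1 fell by 0.94 ± 0.189 with the combination at 96 hours (adjusted p = 0.00343), from 9.07, 8.53 and 8.70 to 8.11, 7.68 and 7.70, and by 0.55 ± 0.130 at 48 hours (adjusted p = 0.0337). The call at 48 hours was lost without control replicate 1 or 3 or combination replicate 2 or 3 (adjusted p = 0.0624 to 0.133).

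Plxnd1 (plexin D1) was higher with T3 and Nrp1 (neuropilin 1) with the combination at 48 hours. Plxnd1 stood at 7.00, 6.93 and 7.01 in control at 48 hours, at 7.49, 7.29 and 7.59 with T3, at 6.70, 6.69 and 6.82 with quetiapine, and at 7.07, 7.19 and 7.10 with the combination. T3 lay above control and quetiapine below it in every array. It rose by 0.48 ± 0.0827 with T3 (adjusted p = 0.0226), a call lost without T3 replicate 1 or 3 or any of the control replicates (adjusted p = 0.0548 to 0.0967). It was the only guidance gene called with T3 at 48 hours, and the count was 0 without control replicate 1 or 2 or T3 replicate 1 or 3. Nrp1 rose by 1.12 ± 0.179 with the combination at 48 hours (adjusted p = 0.00619), from 5.51, 6.15 and 6.15 to 6.79, 7.04 and 7.34. At 96 hours Nrp1 read 7.63 in combination replicate 1 and 5.44 and 5.74 in the others, against 5.46 to 5.92 in control, and did not pass the test.

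**Figure D3:**
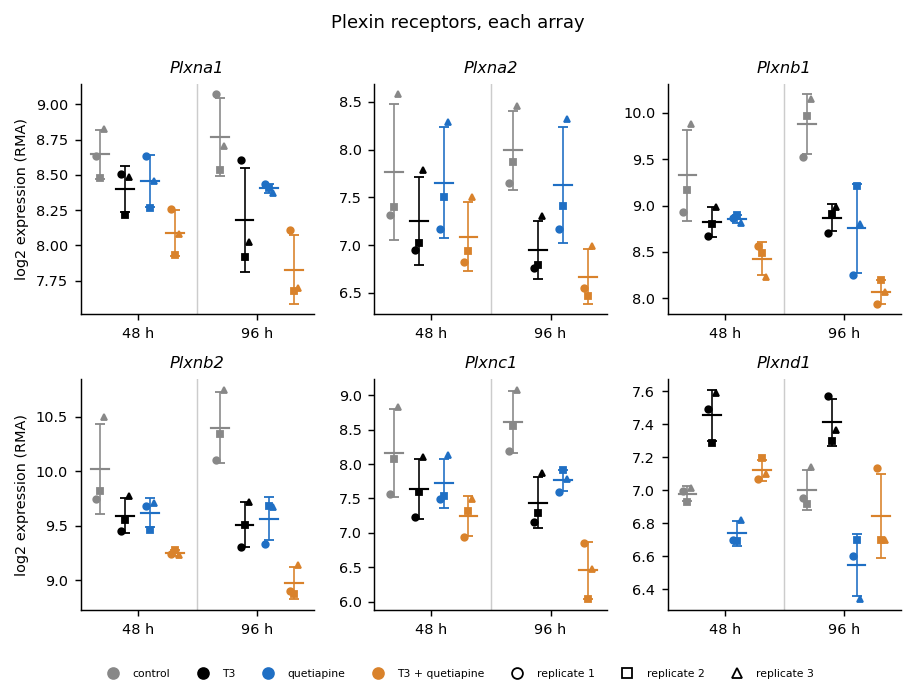
Log2 expression of 6 plexins in each array, by treatment and time, with replicates as symbols, means as lines and 1 SD as bars (n = 3). In plexins B1, B2 and C1 the combination arrays at 96 hours lie below every control array, and in plexin D1 the T3 arrays lie above the quetiapine arrays at both times.

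All 5 ephrins, the membrane-bound ligands of Eph receptors, passed the test with the combination at 96 hours, 1 higher and 4 lower, where 35.1% of all genes passed and 20.0% were lower. Efna1, ephrin A1, was the one that rose. Its levels at 96 hours were 6.98, 6.89 and 6.95 in control, 8.36, 8.22 and 8.31 with T3, 8.44, 8.55 and 8.54 with quetiapine, and 8.59, 9.07 and 8.97 with the combination. The groups did not overlap, and the spread within each of the single-compound groups was at most 0.068 (SD). Efna1 rose by 1.35 ± 0.110 with T3 (adjusted p = 3.57e-05), by 1.57 ± 0.110 with quetiapine (adjusted p = 2.95e-05) and by 1.94 ± 0.110 with the combination (adjusted p = 1.15e-06), a 3.83-fold change. These 3 calls held without any single array. At 48 hours the changes were 0.42, 0.10 and 0.33, and none passed the test.

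Efnb1 and Efnb3, transmembrane ephrins of class B, fell. Efnb1 stood at 7.36, 7.59 and 8.53 in control at 96 hours, at 6.66, 6.36 and 7.05 with T3, at 6.61, 7.35 and 7.34 with quetiapine, and at 6.07, 6.09 and 6.63 with the combination. Replicate 3 was the highest control array. Efnb1 fell by 1.14 ± 0.313 with T3 (adjusted p = 0.0383) and by 1.56 ± 0.313 with the combination (adjusted p = 0.00333). Efnb3 fell by 0.96 ± 0.260 with T3 (adjusted p = 0.0352), by 1.38 ± 0.260 with the combination at 96 hours (adjusted p = 0.00232) and by 0.70 ± 0.181 at 48 hours (adjusted p = 0.0491). With T3 both calls were lost without control replicate 2 or 3 or T3 replicate 1 or 2 (adjusted p = 0.0571 to 0.149 for Efnb1 and 0.0601 to 0.133 for Efnb3). The Efnb3 call at 48 hours was lost without any array except control replicate 1 (adjusted p = 0.0576 to 0.151). With quetiapine at 96 hours Efnb1 gave -0.73 and Efnb3 -0.63, both past the test only with the block (adjusted p = 0.0213 and 0.0104).

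The other 2 ephrins moved less. Efna4, which had 1 protein-coding gene between it and Efna1 in the same RefSeq order, was lower by 0.35 with the combination at 96 hours (adjusted p = 0.0159). Efna5 was lower by 0.66 at 48 hours and by 0.62 at 96 hours with the combination (adjusted p = 0.0312 and 0.0397). Efna4, and Efna5 at 96 hours, lay outside the naming rule and were chosen after their values were seen. Leaving out control replicate 3 or combination replicate 2 ended the Efna4 call (adjusted p = 0.0639 and 0.066), and 4 arrays at 96 hours and 5 at 48 hours each ended the Efna5 call, among them every combination replicate (adjusted p = 0.0598 to 0.132).

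Of the 12 Eph receptors, the receptor tyrosine kinases of the family, 5 fell with the combination at 96 hours, 3 with T3 and none with quetiapine, where 20.0%, 8.08% and 3.04% of all genes were lower. With the block 6, 5 and 4 of them were lower, against 27.6%, 18.2% and 12.5% of all genes. Ephb1 stood at 9.51, 9.64 and 9.58 in control at 96 hours, at 9.05, 9.18 and 9.25 with T3, at 9.69, 9.56 and 9.39 with quetiapine, and at 9.04, 8.91 and 8.81 with the combination. The T3 and combination arrays lay below the control arrays and the quetiapine arrays overlapped them. Ephb1 fell by 0.41 ± 0.0958 with T3 (adjusted p = 0.0182) and by 0.65 ± 0.0958 with the combination (adjusted p = 0.000493), and also by 0.65 with the combination at 48 hours (adjusted p = 0.0202). The T3 call was lost without control replicate 2 or 3 or T3 replicate 1 or 2 (adjusted p = 0.056 to 0.0603), and the call at 48 hours without control replicate 2 or combination replicate 3 (adjusted p = 0.0691 and 0.0784).

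Ephb6, a member without kinase activity, stood at 7.45, 7.33 and 7.72 in control at 96 hours, at 6.53, 6.80 and 6.81 with T3, at 6.92, 7.14 and 7.18 with quetiapine, and at 6.85, 6.56 and 6.60 with the combination. All treated arrays lay below the control arrays at 96 hours. It fell by 0.78 ± 0.128 with T3 (adjusted p = 0.00317) and by 0.83 ± 0.128 with the combination (adjusted p = 0.000712). Ephb3 fell by 0.57 with T3 and by 0.50 with the combination at 96 hours (adjusted p = 0.0352 and 0.0293), and by 0.45 with the combination at 48 hours (adjusted p = 0.033). Each of these 3 calls for Ephb3 was lost without at least 3 single arrays, among them control replicate 1 at 96 hours and combination replicates 2 and 3 at both times (adjusted p = 0.0554 to 0.126).

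Epha5 fell by 1.10 ± 0.262 with the combination at 96 hours (adjusted p = 0.0085), from 6.04, 6.05 and 6.76 to 5.06, 4.91 and 5.58. Ephb4 fell by 0.99 ± 0.287 (adjusted p = 0.0236), from 5.97, 6.01 and 6.82 to 4.97, 5.17 and 5.70, and lost the call without control replicate 3 or combination replicate 1 or 2 (adjusted p = 0.0757 to 0.0935). In both genes replicate 3 was the highest of its group. Epha4 gave the largest change of an Eph receptor with quetiapine, -1.33 at 96 hours. Its levels were 6.71, 7.36 and 8.51 in control and 5.45, 6.09 and 7.06 with quetiapine, lower in every replicate but with overlapping groups. This passed only with the block (adjusted p = 0.148 without and 0.00105 with it). Epha3 gave -0.74 with quetiapine at 96 hours, likewise past the test only with the block (adjusted p = 0.000198).

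Among the netrins and their receptors, Unc5b and Unc5c, repulsive netrin receptors, rose with the combination at 96 hours. Unc5b stood at 5.87, 6.16 and 5.95 in control, at 6.39, 6.29 and 6.62 with T3, at 6.33, 6.68 and 6.91 with quetiapine, and at 6.79, 6.84 and 7.36 with the combination. All treated arrays lay above the control arrays. The rise was 1.01 ± 0.176 with the combination (adjusted p = 0.00153), and the changes of 0.44 with T3 and 0.65 with quetiapine passed only with the block (adjusted p = 0.0296 and 0.00624). Unc5c rose by 0.72 ± 0.241 (adjusted p = 0.0442), from 9.25, 8.49 and 8.29 to 9.40, 9.38 and 9.41, and lost the call without any array but control replicate 1 (adjusted p = 0.0851 to 0.165). Ntn1, the ligand netrin 1, stood at 9.67, 9.15 and 8.85 in control at 48 hours, at 10.64, 10.26 and 9.48 with T3 and at 10.64, 10.34 and 9.69 with the combination. It was higher in every replicate, by 0.90 with T3 and 1.00 with the combination, past the test only with the block (adjusted p = 0.000675 and 0.000167).

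Of the 6 slits and Robo receptors 2 passed against control without the block. Both did so with the combination at 96 hours, where 35.1% of all genes passed and 20.0% were lower. Slit1 was lower by 0.31 (adjusted p = 0.0479) and Robo1 by 0.36 (adjusted p = 0.00498). The other 4 passed no test against control without the block. Slit1 and Robo1 lay outside the naming rule and were chosen after their values were seen. The Slit1 call was lost without any array but control replicate 1 (adjusted p = 0.0652 to 0.173), and that of Robo1 held without any array. Robo2 stood at 7.29, 7.22 and 7.96 in control at 96 hours and at 8.11, 8.22 and 8.74 with T3, with no overlap. Its change of 0.87 passed only with the block (adjusted p = 0.0878 without and 0.00261 with it), and the combination gave 0.06.

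Quetiapine and T3 were compared directly to see where the compounds differed. At 48 hours 1 guidance gene was higher and 3 were lower with quetiapine than with T3 (2.15% of all genes, 0.696% higher and 1.46% lower), and at 96 hours 1 was lower (3.31%, of which 2.30% lower). Plxnd1 was lower with quetiapine at both times, by 0.72 ± 0.0827 at 48 hours (adjusted p = 0.00162) and by 0.87 ± 0.139 at 96 hours (adjusted p = 0.00886). At 96 hours it stood at 7.57, 7.30 and 7.36 with T3 and at 6.60, 6.70 and 6.34 with quetiapine. Both Plxnd1 calls held without any single array. At 48 hours Sema3c and Sema6b were also lower and Ephb1 higher with quetiapine. Sema6b, a transmembrane semaphorin, differed by -0.55 ± 0.103 (adjusted p = 0.0248) and Ephb1 by 0.66 ± 0.134 (adjusted p = 0.0375). The Sema6b call was lost without any array but quetiapine replicate 1 (adjusted p = 0.0569 to 0.115), and the Ephb1 call without any 1 of the 6 arrays (adjusted p = 0.0641 to 0.156). At 48 hours 1 gene passed without quetiapine replicate 2 or T3 replicate 2 or 3 and 2 without each of the others, and at 96 hours 2 passed without T3 replicate 1. With the block 13 guidance genes passed at 48 hours and 10 at 96 hours, or 22.8% and 17.5% of the guidance genes. Of all genes 12.06% and 14.43% then passed. The guidance genes past the test with the block included Sema3e (0.64 and 0.76, adjusted p = 0.00167 and 0.00119) and Epha4 (-0.85 and -1.52, adjusted p = 0.00137 and 0.000686).

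The combination was set against each compound at 96 hours. Against T3, Efna1 was higher by 0.58 ± 0.110 (adjusted p = 0.0255) and no other guidance gene passed (2.33% of all genes, 1.29% as higher). That call was lost without replicate 2 or 3 of either group (adjusted p = 0.0958 to 0.114), leaving 0 genes, whereas 2 passed without T3 replicate 1 and 4 without combination replicate 1. Against quetiapine, Sema4d was higher by 0.91 ± 0.245 (adjusted p = 0.0474), and Plxnc1 and Ephb1 were lower, by 1.31 ± 0.259 (adjusted p = 0.0135) and 0.63 ± 0.0958 (adjusted p = 0.00432), where 9.24% of all genes passed (4.36% higher and 4.87% lower). The Ephb1 difference held without any array. The Sema4d call was lost without any array but quetiapine replicate 1 (adjusted p = 0.0892 to 0.171), and that of Plxnc1 without quetiapine replicate 2 or 3 or combination replicate 2 (adjusted p = 0.0514 to 0.062). Of the guidance genes 1 passed without quetiapine replicate 2 or 3 or combination replicate 2, 2 without combination replicate 3, 5 without quetiapine replicate 1 and 6 without combination replicate 1. With the block the counts were 11 against T3 and 21 against quetiapine, or 19.3% and 36.8% of the guidance genes. Of all genes 14.9% and 23.8% then passed. Sema4d was among the guidance genes that passed against T3 with the block (1.03, adjusted p = 0.00221).

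The interaction on the log2 scale, taken as the combined change minus both single changes, passed for no guidance gene in limma (0.0492% of all genes), with 1 at an unadjusted p under 0.05. That gene was Efna1, at -0.99 ± 0.155 (adjusted p = 0.079), which passed with the block (adjusted p = 0.0328). With the block 0.366% of all genes passed the interaction test, 0.0563% as higher and 0.309% as lower. Epha3 also passed with the block, at 0.67 (adjusted p = 0.0465), and not without it (adjusted p = 1.00). The rise of Efna1 with the combination was thus smaller on the log2 scale than the sum of its rises with T3 and quetiapine. Sema4d had an interaction of -0.64 ± 0.347, Plxnb1 of 0.33 ± 0.310 and Plxnc1 of -0.14 ± 0.366, none past the test. Without combination replicate 1 the interaction passed for 1 guidance gene.

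The change from 48 to 96 hours was then read within each treatment. In control no guidance gene passed in limma (0.0281% of all genes), with 5 at an unadjusted p under 0.05 and 2 with the block (4.42% of all genes). With T3 2 were higher and 1 lower at 96 hours (8.34% of all genes, 3.36% higher and 4.97% lower), and with quetiapine 2 were higher (3.43%, of which 2.58% higher). With the combination 5 were higher and 4 lower (27.2%, 11.3% higher and 15.9% lower). Efna1 rose with time by 1.09, 1.63 and 1.77 in the T3, quetiapine and combination cultures (adjusted p = 0.000304, 3.21e-06 and 3e-07). Unc5b rose by 0.49, 0.74 and 1.14 (adjusted p = 0.0474, 0.00639 and 1.89e-05), the T3 call being lost without any 1 of its arrays (adjusted p = 0.0563 to 0.197). Ephb6 fell by 0.47 with T3 (adjusted p = 0.0158, and 0.104 without T3 replicate 1 at 48 hours) and by 0.73 with the combination (adjusted p = 9.82e-05). Without that T3 array 1 gene passed with T3.

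With the combination Sema4d also rose with time by 1.54 (adjusted p = 0.00912), Sema4f, a membrane-bound semaphorin, by 0.58 (adjusted p = 0.00803) and Epha10 by 0.56 (adjusted p = 0.0024). Epha7 fell by 0.66 (adjusted p = 0.011), Sema5a by 0.86 (adjusted p = 0.0265) and Sema6b by 0.41 (adjusted p = 0.0119). Leaving out combination replicate 1 at 48 hours ended the calls of Sema4d, Epha7, Sema5a and Sema6b, and leaving out replicate 3 at 96 hours those of Epha7, Sema4f and Sema6b. Sema4d was also lost without replicate 2 at 48 hours, and Sema5a without replicate 2 at 48 hours or replicate 1 or 2 at 96 hours (all these adjusted p = 0.0512 to 0.118). Epha10 held without any array.

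Whether the change against control differed between the times was tested directly. For the combination it differed in 3 guidance genes (8.17% of all genes, 4.91% higher and 3.26% lower), Efna1 and Unc5b higher and Ephb6 lower, and for quetiapine in Efna1 (0.134%). For T3 none passed in limma (0.0563%), with 3 at an unadjusted p under 0.05 and 2 with the block (1.37% of all genes). Those 2 were Efna1 (0.93, adjusted p = 0.0224) and Ephb6 (-0.74, adjusted p = 0.0334). For the combination 14 passed with the block, or 24.6% of the guidance genes against 22.0% of all genes. The count for the combination was 6 without control replicate 3 at 48 hours and 7 without combination replicate 1 at 96 hours.

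Other genes of the guidance pathways were read from 2 lists. Of 25 measured further receptors and partners, 5 were higher and 4 lower with the combination at 96 hours, where 35.1% of all genes passed, with a median change of -0.17 against -0.01 for all genes. The lower ones were Cxcr4, a chemokine receptor (-2.30), Rgma, a ligand of neogenin (-2.27), Flrt2, a ligand of Unc5 receptors (-1.31), and Nrcam, an adhesion molecule (-0.97). Dcc, the attractive netrin receptor, was higher by 0.32 at a level of 3.88 to 4.41, and Neo1 (neogenin) was higher by 0.46, Gpc1, a glypican, by 0.60, and Vegfa, a ligand of neuropilin 1, by 0.86. Of 38 measured cytoplasmic effectors, 6 were higher and 10 lower, with a median change of 0.02. Pak1, a kinase downstream of Rac, was higher by 2.26 (8.75, 9.13 and 9.03 in control against 10.03, 11.65 and 12.02), and Mical3, of the Mical family of oxidoreductases, by 1.16, while Dpysl5, of the collapsin response mediator family, was lower by 1.62 and Farp1, a plexin-associated exchange factor, by 1.11. Mical1, which acts downstream of plexins, was lower in all 6 comparisons with control, at 48 hours by -0.95 under T3, -1.01 under quetiapine and -1.71 under both. With the block, under which 47.6% of all genes passed, 5 partners were higher and 10 lower, and 11 effectors were higher and 11 lower.

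For 24 of the guidance genes the array held several probe sets. Among the genes that passed with the combination at 96 hours 10 had other probe sets, 16 in all, of which 14 moved the same way and 9 passed in that direction. The other 2, of Plxna1 and Efna5, moved the opposite way and did not pass. The second probe set of Efna1 and that of Plxnc1 passed in the same direction as the first.

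**Figure D4:**
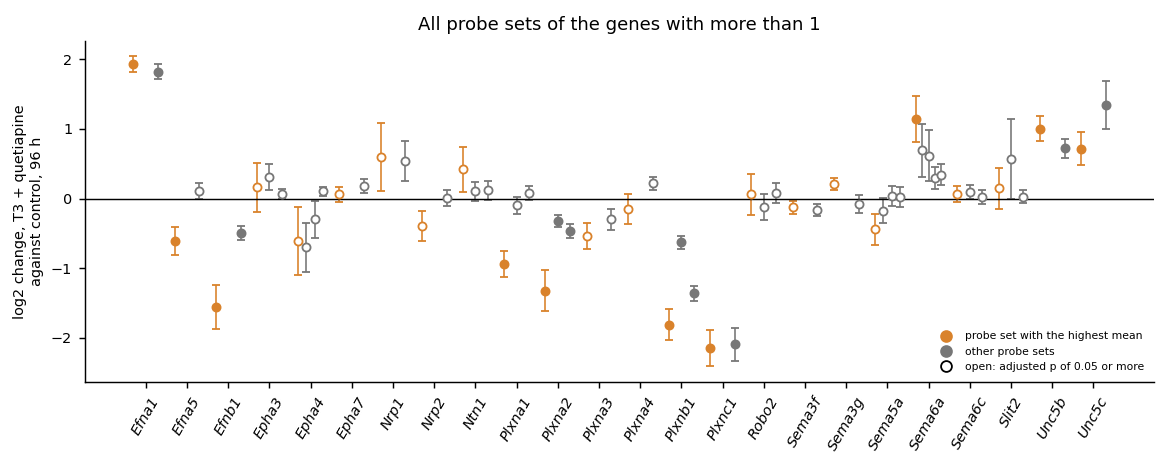
Log2 change with the combination at 96 hours of each probe set of the 24 guidance genes with more than 1, with bars of 1 SE. Orange marks the probe set that stood for the gene and grey the others, and open symbols did not pass the test. In Efna1, Plxnb1, Plxnc1, Unc5b and Unc5c all probe sets passed in the same direction.

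Of the 57 guidance genes 27 passed at least 1 comparison of a treatment with control, and 39 did so with or without the block. At 96 hours Sema4d, Efna1, Plxnb1 and Plxnb2 passed with each of the 3 treatments. The 18 genes that passed in neither fit were Nrp2, Plxna4, Sema3a, Sema3f, Sema3g, Sema4g, Sema5a, Sema6c, Epha2, Epha6, Epha8, Epha10, Ntn5, Unc5a, Unc50, Robo3, Slit2 and Slit3. Their largest change was 0.65, in Slit2 with quetiapine at 48 hours (adjusted p = 0.651). Epha6, Epha8, Ntn5 and Unc5a had mean levels in the lowest 25% of probe sets.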

How the data were processed

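RNA of 24 OPC cultures was hybridised to Affymetrix rat arrays. The authors deposited log2 expression values made by RMA, and the submitters' processing notes also name limma, with versions not given in the sources used here. Raw signals were not analysed here and the day 0 cultures were not used here. Of 31099 probe sets 57 controls were left out and 31042 tested.

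For each time point, the 12 arrays entered a linear model of 4 group means without a replicate term (limma 3.58.1, R 4.3.3). Comparisons of times used all 24 arrays in 1 model. Empirical Bayes moderation was followed by Benjamini-Hochberg adjustment across the 31042 probe sets, and a gene was called at an adjusted p under 0.05. Shares of all genes refer to the 14217 genes, each by its probe set with the highest mean. The script was checked on simulated data.

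Replicate numbers pair the arrays, because the series' design has each of 3 biological replicates supply every condition. Deviations from group means correlated between arrays of the same number (0.430 to 0.777 at 48 hours, 0.309 to 0.690 at 96 hours) more than between others (-0.681 to -0.00478 and -0.583 to 0.243). The main fits do not use this pairing. The replicate as a block was an alternative, beside median centring, leaving out dim probe sets, a fold over 1.5, an intensity trend, the mean of a gene's probe sets and leaving out each array. The counts and calls without single arrays come from fits without the block.

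Named genes were those past the test with the largest changes, up to 12 in each direction against control and 6 elsewhere, up to 4 in each direction from each further list, and 1 per role with no such gene. Genes named outside this rule were chosen after their values were seen. The members and lists were chosen with earlier results of these data known. The number of arrays limits the precision.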

Additional observations from a re-analysis of the deposited data

Results flagged for a closer look

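In 3 guidance genes the change against control differed between 96 and 48 hours by limma's test of the difference itself. For Efna1 the change was larger at 96 hours by 1.47 with quetiapine (adjusted p = 0.00395) and by 1.61 with the combination (adjusted p = 0.000233). For Unc5b it was larger by 1.01 with the combination (adjusted p = 0.00527), and for Ephb6 the difference was -0.996 (adjusted p = 0.000852). The combination changed Unc5b by -0.01 and Ephb6 by 0.17 at 48 hours, and Unc5b by 1.01 and Ephb6 by -0.83 at 96 hours. All 4 differences held without any single array. With T3 the difference passed for Efna1 and Ephb6 only with the replicate as a block, where 1.37% of all genes passed.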

How the results depend on the processing

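Counts of guidance genes past the test kept within 1.5 times under median centring, without dim probe sets and with an intensity trend, and no direction reversed. With the replicate block, the paired analysis, the counts were 17, 5 and 23 for T3, quetiapine and the combination against control at 48 hours and 22 and 19 for T3 and quetiapine at 96 hours. They were 13 and 10 for quetiapine against T3, 11 and 21 for the combination against T3 and quetiapine, and 2 for the interaction. For the interaction 0.366% of all genes passed with the block. For 96 against 48 hours the counts were 2, 7, 4 and 19 in the control, T3, quetiapine and combination cultures, where 4.42%, 24.1%, 14.0% and 39.1% of all genes passed. For the difference between times they were 2 with T3 and 14 with the combination, where 1.37% and 22.0% of all genes passed. A fold over 1.5 left 0 genes for T3 at 48 hours, 0 for the combination against T3 and 1 for time with T3. The mean of probe sets gave 2 for quetiapine against T3 at 96 hours, 6 for the combination against quetiapine and 1 for the interaction. Without single arrays the counts ran from 0 to 1 for T3 and from 1 to 9 for the combination at 48 hours, from 1 to 2 for quetiapine against T3 at each time, from 6 to 12 for T3 and 2 to 7 for quetiapine at 96 hours, from 0 to 4 and 1 to 6 for the combination against T3 and quetiapine, from 0 to 1 for the interaction, from 1 to 4 for time with T3, and from 3 to 7 for the difference between times with the combination.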
